A study of Mus musculus with 6 samples.

Results

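Imprinted genes are expressed mainly or only from the allele inherited from 1 parent, and they lie in clusters that share a control region methylated in the egg or the sperm. A list of 49 mouse imprinted genes was matched by GENCODE M21 symbol to the table of 24191 genes. It found 48 of them, in 20 loci, and Nctc1 was not analysed here. PolyA RNA came from J1 mouse embryonic stem cells, grown in serum and LIF for 7 days. The groups were wild type (WT, 3 libraries) and Mettl5 -/- (knockout, 3 libraries). METTL5 is the methyltransferase of N6-methyladenosine in 18S ribosomal RNA, and the study asked what it does in pluripotency and development. The sources used here do not say how many clones were used or whether replicates were separate cultures, so p-values measure the spread between these libraries, which may be technical.

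Many imprinted genes act on growth. Paternally expressed genes such as Igf2 and Peg3 tend to promote fetal growth or maternal provisioning, and maternally expressed genes such as Cdkn1c, Grb10, Igf2r and Phlda2 tend to restrain growth. Each domain is kept allele specific by DNA methylation that survives the erasure after fertilisation, by the zinc finger protein ZFP57 with TRIM28, and at H19 and Igf2 by the insulator protein CTCF. The table gives total RNA per gene, so no value here separates the 2 alleles, and fewer cells with a transcript cannot be told apart from less RNA per cell.

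In the knockout 23 of the 48 genes were higher and 15 lower (limma on log2 of scaled reads, Benjamini-Hochberg adjusted p under 0.05), and 10 did not pass. Over all 24183 tested genes 33.6% were higher and 28.9% lower, so lower calls were about as frequent among imprinted genes as in the whole table. The median log2 fold change was 0.16 for imprinted genes and 0.0038 for all genes, and the median size regardless of sign was 0.79 against 0.46. Called changes of at least 1 on the log2 scale numbered 11 upwards and 4 downwards, and the share of all genes with changes of that size was not counted. The groups did not overlap on the TPM scale, the deposited level per transcript length, for 41 of the 48 genes, against 68.1% of all tested genes. With libraries rescaled to equal totals, 21 were higher and 18 lower, beside 26.1% and 37.8% of all genes (63.9% in either direction). Values were also centred by chromosome in each library. Level centring, which subtracts the median log2 value of the chromosome's genes, gave 24 higher and 20 lower, beside 26.9% and 33.7%. Deviation centring, which subtracts the median deviation of those genes from their own means and was chosen after seeing the data, gave 23 higher and 15 lower, beside 31.7% and 29.0%. The shift from level centring can differ much from the chromosome's median fold change. On chromosome 18, with a median of 0.21, it took Impact from 1.48 to 0.87. Values with level centring are thus not values corrected for the change of the chromosome.

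**Figure D1:**
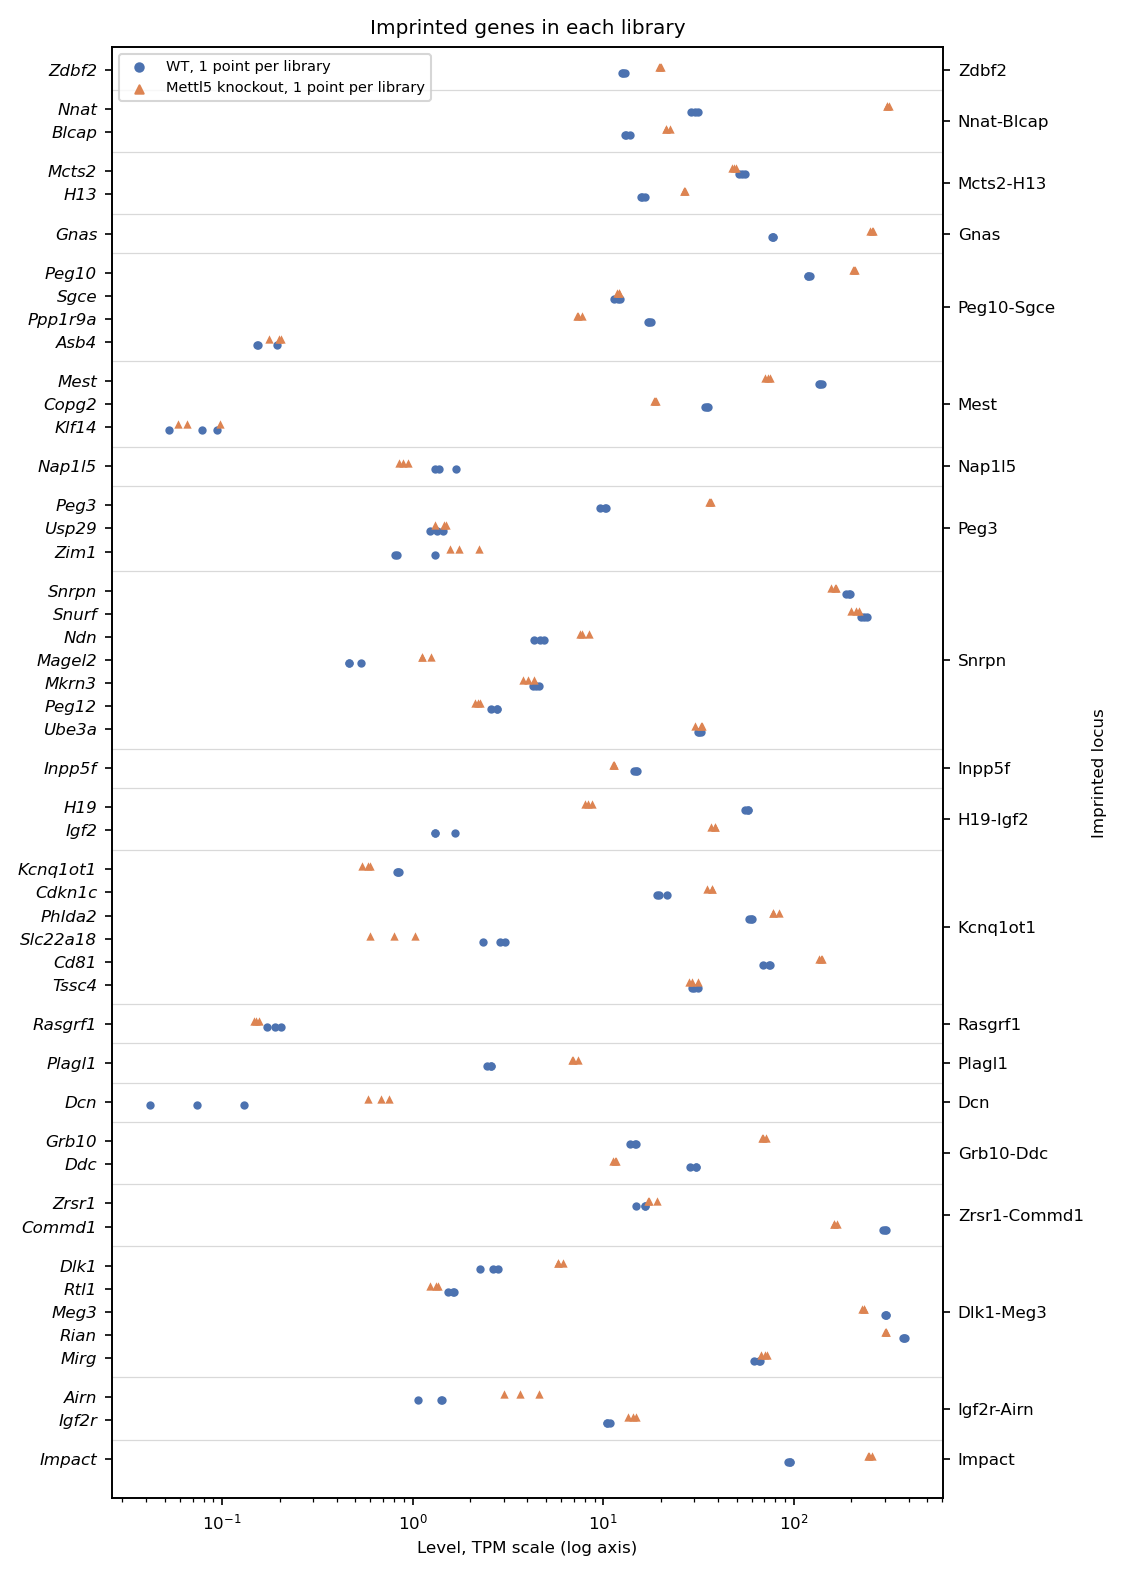
Level of each of the 48 imprinted genes in each library, on the TPM scale with a log axis, grouped by locus. Circles are WT and triangles knockout libraries, 3 of each. Replicates lie close together, and the widest gaps between genotypes are those of Igf2, Nnat, Dcn and H19.

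Promoters are shown for 9 members with 1 RefSeq start whose promoters lie in or beside a control region methylated in the egg, to set sequence beside change: Nnat, Peg3, Plagl1, Airn and Zrsr1 were called higher, Mcts2 and Snurf were not called, and Kcnq1ot1 and Nap1l5 were called lower. That of Usp29 overlaps the one of Peg3 and is not shown. Each is the 250 bases before the start (RefSeq, GRCm38.p6), 5′ to 3′ on the gene's strand, and capitals mark TGCCGC or its reverse complement, the core of the site that ZFP57 binds when its CpG is methylated.
Nnat (chr2:157559828-157560077, plus strand): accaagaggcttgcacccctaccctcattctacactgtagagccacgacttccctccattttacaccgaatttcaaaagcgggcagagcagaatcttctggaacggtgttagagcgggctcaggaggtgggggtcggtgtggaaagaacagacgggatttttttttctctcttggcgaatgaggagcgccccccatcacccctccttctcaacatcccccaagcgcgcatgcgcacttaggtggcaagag
Peg3 (chr7:6730420-6730669, minus strand): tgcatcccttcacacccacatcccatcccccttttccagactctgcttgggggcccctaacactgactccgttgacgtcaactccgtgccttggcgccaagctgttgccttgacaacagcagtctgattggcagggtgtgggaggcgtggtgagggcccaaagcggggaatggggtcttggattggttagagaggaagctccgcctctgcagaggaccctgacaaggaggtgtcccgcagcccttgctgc
Plagl1 (chr10:13090582-13090831, plus strand): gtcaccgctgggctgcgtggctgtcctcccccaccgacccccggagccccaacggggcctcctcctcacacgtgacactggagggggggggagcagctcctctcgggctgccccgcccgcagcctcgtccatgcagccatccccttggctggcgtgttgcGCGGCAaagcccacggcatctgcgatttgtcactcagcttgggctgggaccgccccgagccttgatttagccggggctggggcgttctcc
Airn (chr17:12741061-12741310, plus strand): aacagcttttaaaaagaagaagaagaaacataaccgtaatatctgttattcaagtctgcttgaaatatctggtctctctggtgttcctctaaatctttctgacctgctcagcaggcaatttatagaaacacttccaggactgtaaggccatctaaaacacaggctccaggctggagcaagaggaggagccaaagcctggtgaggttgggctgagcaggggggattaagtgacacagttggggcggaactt
Mcts2 (chr2:152686898-152687147, plus strand): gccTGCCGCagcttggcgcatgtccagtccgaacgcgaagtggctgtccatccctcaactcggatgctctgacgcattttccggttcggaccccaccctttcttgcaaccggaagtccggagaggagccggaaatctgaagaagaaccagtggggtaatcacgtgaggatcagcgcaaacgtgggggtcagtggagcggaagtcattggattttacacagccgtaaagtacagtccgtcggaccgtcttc
Kcnq1ot1 (chr7:143296548-143296797, minus strand): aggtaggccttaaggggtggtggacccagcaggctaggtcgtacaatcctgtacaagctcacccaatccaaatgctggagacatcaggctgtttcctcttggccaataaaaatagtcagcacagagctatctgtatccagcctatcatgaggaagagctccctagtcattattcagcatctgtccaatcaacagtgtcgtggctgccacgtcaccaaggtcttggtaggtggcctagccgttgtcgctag
Nap1l5 (chr6:58907127-58907376, minus strand): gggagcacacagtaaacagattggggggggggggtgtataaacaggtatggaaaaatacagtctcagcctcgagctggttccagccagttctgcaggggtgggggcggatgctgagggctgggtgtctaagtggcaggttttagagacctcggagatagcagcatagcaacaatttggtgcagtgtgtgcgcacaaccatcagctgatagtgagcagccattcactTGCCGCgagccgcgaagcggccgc
Zrsr1 (chr11:22971755-22972004, plus strand): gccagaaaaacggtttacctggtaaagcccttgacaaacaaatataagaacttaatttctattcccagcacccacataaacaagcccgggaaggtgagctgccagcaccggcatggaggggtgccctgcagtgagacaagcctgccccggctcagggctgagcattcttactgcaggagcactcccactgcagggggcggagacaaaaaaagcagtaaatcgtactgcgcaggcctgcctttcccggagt
Snurf (chr7:60005200-60005449, minus strand): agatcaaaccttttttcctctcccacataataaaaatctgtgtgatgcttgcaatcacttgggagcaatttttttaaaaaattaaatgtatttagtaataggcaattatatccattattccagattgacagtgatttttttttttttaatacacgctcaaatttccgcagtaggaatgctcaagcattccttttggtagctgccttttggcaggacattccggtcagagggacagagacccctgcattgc
Both Plagl1, which rose, and Nap1l5, which fell, hold 1 match, as does Mcts2, and the other 6 hold none in these letters. RefSeq promoters matched 40 of the 48 members, with 58 windows, of which 9 (15.5%) hold TGCCGC on either strand, against 8.68% of 32851 windows of all genes. CpG dinucleotides in the 9 windows shown numbered from 2 for Airn and 3 for Snurf to 19 for Plagl1 and 20 for Mcts2. The median over the windows of all genes was 6. TGCCGC holds a CpG, and the percentages above were not matched for CpG content. A match describes these letters and is no measure of binding or methylation, and sites outside the window were not searched.

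Igf2 and H19 share the control region and the enhancers of 1 domain on chromosome 7. Igf2, the fetal growth factor insulin-like growth factor 2 (ENSMUSG00000048583, GRCm38 chromosome 7, 142650766 to 142666816, minus strand), had TPM-scale levels of 1.31, 1.31 and 1.66 in WT and of 36.8, 38.4 and 38.6 in the knockout. Every knockout library was far above every WT library, and the ratio of means was 26.6. The log2 fold change came to 4.79 (limma adjusted p 4.86e-10, SE 0.0966). H19, the noncoding RNA of the other allele (ENSMUSG00000000031, 142575529 to 142578143, minus strand), went the other way, from 57.8, 55.7 and 57.2 to 7.98, 8.75 and 8.28. WT libraries were all higher, 6.82 times on average, and the log2 fold change was -2.71 (limma adjusted p 1.18e-10, SE 0.0429). The ratio of Igf2 to H19 was 0.0226 to 0.0291 in WT and 4.39 to 4.67 in the knockout. The genes thus changed places as the more abundant RNA of the domain.

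Other genes near this domain changed as well. Of 7 flanking protein-coding genes within 500 kb, 6 were higher and 1 was lower (median 1.94). Mrpl23, a mitochondrial ribosomal protein gene 34.8 kb from the nearer of H19 and Igf2, was lower (-1.25), and Tnnt3, a troponin gene 59.5 kb away, was higher (1.94). Markers of extraembryonic endoderm, a lineage with abundant H19, fell in the same libraries, with 7 of 8 lower and none higher. Their summed level was 37.1 to 38.7 in WT and 12.8 to 13.6 in the knockout, with none at 0. Markers of feeder fibroblasts, which express Igf2 and H19, had 13 of 16 higher and 3 lower, with a summed level of 27.2 to 28.8 in WT and 59.0 to 60.3 in the knockout, and Lum at 0 in 1 library. The counts of flanking genes and of both marker lists stand beside 33.6% of all tested genes higher and 28.9% lower. The part of either cell type in these changes was not tested.

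The neighbouring domain on chromosome 7 is controlled by Kcnq1ot1, a long antisense RNA of the paternal allele that silences genes around it. Kcnq1ot1 (ENSMUSG00000101609, 143203458 to 143296549, minus strand) was at 0.841, 0.843 and 0.827 in WT and at 0.540, 0.598 and 0.585 in the knockout. No knockout library reached the WT level (log2 fold change -0.50, limma adjusted p 2.97e-06, SE 0.0386). Cdkn1c, the cyclin-dependent kinase inhibitor p57 (ENSMUSG00000037664, 143458339 to 143461050), was at 19.5, 21.6 and 19.2 in WT and at 37.4, 35.1 and 37.3 in the knockout. Its rise of 0.94 (limma adjusted p 4.03e-07, SE 0.0541) was shared by others of the domain. Cd81, a tetraspanin of the cell surface, rose by 0.99 from 72.7 ± 3.11 to 138 ± 3.17 on the TPM scale (SD, n = 3). Phlda2, a restrainer of placental growth, rose by 0.53 from 59.4 ± 1.06 to 79.5 ± 3.42 (SD, n = 3). Slc22a18, a membrane transporter gene between Cdkn1c and Phlda2, did not follow them. It was at 2.86, 2.34 and 3.06 in WT and at 1.02, 0.593 and 0.797 in the knockout, a change of -1.72 on the log2 scale (limma adjusted p 4.12e-05, SE 0.194). Tssc4, at 30.1 ± 1.06 and 29.5 ± 1.72 (SD, n = 3), was not called, but was called lower with level centring (-0.18).

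In the Dlk1-Meg3 domain on chromosome 12, the paternal allele gives Dlk1 and Rtl1 and the maternal allele gives the noncoding RNAs Meg3, Rian and Mirg, which host microRNAs and small nucleolar RNAs. Meg3 (ENSMUSG00000021268, 109541001 to 109571726) was at 305, 302 and 303 in WT and at 227, 233 and 233 in the knockout. Rian was at 385, 376 and 374 in WT and at 301, 303 and 306 in the knockout. Both were among the most abundant imprinted RNAs, and both fell modestly, by 0.32 and 0.25 on the log2 scale (limma adjusted p 2.61e-06 and 9.67e-06). Mirg, at 64.5 ± 2.70 against 70.0 ± 2.81 (SD, n = 3), was called higher (0.18, limma adjusted p 0.00438, SE 0.0421). That call was lost with equal totals (0.024) and with deviation centring (0.073), and with level centring the value was -0.014. Dlk1, a transmembrane ligand related to Notch ligands, was at 2.26, 2.63 and 2.79 in WT and at 6.12, 5.78 and 5.78 in the knockout. Its rise (log2 fold change 1.26, limma adjusted p 1.65e-06, SE 0.0895) brought it to a level still far below Meg3. Rtl1, a retrotransposon-derived gene needed in the placenta, fell by 0.24 from 1.60 ± 0.0637 to 1.31 ± 0.0652 (SD, n = 3). Dlk1, Rtl1 and Rian each had values identical to those of 1 further identifier without a GENCODE M21 name, as when reads are divided between identical copies, so their levels may be understated while Meg3 and Mirg had no identical partner.

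Igf2r, the receptor that removes insulin-like growth factor 2, and Airn, the antisense RNA that silences it on the paternal allele, rose together on chromosome 17. Airn (ENSMUSG00000078247, 12741311 to 12860136) was at 1.07, 1.43 and 1.40 in WT and at 4.58, 3.65 and 3.02 in the knockout. The knockout libraries varied but all lay above WT (log2 fold change 1.57, limma adjusted p 6.3e-05, SE 0.188). Igf2r went from 10.44, 10.45 and 10.80 to 14.9, 14.3 and 13.5 (log2 fold change 0.50, limma adjusted p 4.35e-05, SE 0.0567). The knockout library with the highest Airn also had the highest Igf2r, but in WT Airn was highest in replicate 2 and Igf2r in replicate 3. The genes overlap on opposite strands, and no source used here says whether the counting used strand, so reads of one may be among those of the other.

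Grb10 and Ddc are neighbours on chromosome 11 and moved in opposite directions. Grb10, an adaptor that dampens insulin and growth factor receptors (ENSMUSG00000020176, 11930508 to 12038683, minus strand), was at 14.7, 13.7 and 14.8 in WT and at 68.2, 68.6 and 71.8 in the knockout. Knockout libraries were all higher, 4.83 times on average, with a change of 2.34 on the log2 scale (limma adjusted p 2.83e-10, SE 0.0427). Ddc, the decarboxylase that makes dopamine and serotonin, was at 30.6, 30.8 and 28.6 in WT and at 11.5, 11.6 and 11.3 in the knockout (log2 fold change -1.32, limma adjusted p 1.08e-08, SE 0.0439). The genes of chromosome 11 had a median log2 fold change of -0.41. With deviation centring, Grb10 was at 2.73 and Ddc at -0.92, both still called.

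On chromosome 2, Nnat and Gnas rose steeply. Nnat, a small membrane protein of the endoplasmic reticulum that lies within an intron of Blcap (ENSMUSG00000067786, 157560078 to 157562522), was at 30.2, 29.0 and 31.3 in WT and at 316, 306 and 308 in the knockout. The ratio of means was 10.3, the log2 fold change 3.43 (limma adjusted p 1.19e-11, SE 0.0363). Its host Blcap rose less, by 0.80, from 13.3 ± 0.457 to 21.7 ± 0.511 (SD, n = 3). Gnas, whose locus gives the stimulatory G protein alpha subunit and other products from both alleles, was at 76.9, 78.1 and 78.0 in WT and at 251, 256 and 261 in the knockout. The table holds 1 value for all of its promoters (log2 fold change 1.77, limma adjusted p 5.43e-11, SE 0.0249), so isoforms cannot be told apart. In the pair of Mcts2, a retrogene, and its host H13, a signal peptide peptidase, only the host was called: H13 rose by 0.79 from 15.7, 15.9 and 16.6 to 26.9, 26.6 and 26.7. Mcts2 was at 53.5 ± 2.04 and 48.5 ± 1.24 (SD, n = 3) with a change of -0.07 on the log2 scale (limma adjusted p 0.125). Its groups did not overlap on the TPM scale. It was called lower with equal totals (-0.23), with the TPM column (-0.14), with level centring (-0.22) and with deviation centring (-0.17). Mcts2 resembles its parent gene Mcts1, so reads may be shared between them.

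The 3 loci on chromosome 6 lie where genes were lower in general, with a median log2 fold change of -0.29 and 46.4% of genes lower. Peg10, a retrotransposon-derived gene essential for the placenta (ENSMUSG00000092035, 4747306 to 4760517), nevertheless rose, from 119, 118 and 121 to 203, 209 and 207 on the TPM scale. The log2 fold change came to 0.84 (limma adjusted p 2.97e-09, SE 0.0228), and 1.12 with deviation centring. Sgce, which encodes epsilon-sarcoglycan and starts beside Peg10 on the other strand, was at 11.9 ± 0.395 and 12.1 ± 0.172 (SD, n = 3) and was not called. It was called higher with deviation centring (0.36). Ppp1r9a, a neurabin gene of the same cluster, fell from 17.3, 17.1 and 17.8 to 7.74, 7.39 and 7.25 (log2 fold change -1.17, limma adjusted p 6.64e-09, SE 0.036). Mest, a hydrolase-like gene of mesoderm, and Copg2, a coatomer subunit gene whose end overlaps that of Mest, fell in parallel. Mest was at 140, 135 and 136 in WT and at 73.3, 70.9 and 75.3 in the knockout, and Copg2 at 35.2, 34.3 and 35.1 in WT and at 18.9, 18.5 and 18.8 in the knockout. Their log2 fold changes were -0.82 (limma adjusted p 3.88e-08, SE 0.0334) and -0.83 (limma adjusted p 3.7e-08, SE 0.0336). The ratio of Mest to Copg2 stayed between 3.83 and 4.01 in all 6 libraries. The 8 genes flanking Mest had 7 lower and 1 higher, with a median of -0.65, and with deviation centring Mest and Copg2 were at -0.54 and -0.55. Nap1l5, a nucleosome assembly retrogene, was lower (1.45 ± 0.202 and 0.891 ± 0.0459, SD, n = 3, with a log2 change of -0.63 and a limma adjusted p of 0.00342), a call lost with deviation centring (-0.35, limma adjusted p 0.0618). Asb4 and Klf14 stayed under 1 on the TPM scale and were not called, but Asb4 was called higher with level centring (0.53).

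Peg3 and Usp29 start on either side of 1 shared control region on chromosome 7. Peg3, a zinc finger protein linked to maternal care and growth (ENSMUSG00000002265, 6703892 to 6730431, minus strand), was at 9.65, 10.3 and 10.2 in WT and at 35.8, 36.3 and 36.9 in the knockout. It rose by 1.90 on the log2 scale (limma adjusted p 2.05e-10, SE 0.0332), with no overlap between groups. Usp29, its divergent partner, was at 1.34 ± 0.0994 and 1.42 ± 0.105 (SD, n = 3) and was not called (0.14, limma adjusted p 0.222). The ratio of Peg3 to Usp29 was 7.11 to 8.36 in WT and 24.2 to 28.4 in the knockout. Zim1, a maternally expressed zinc finger gene beside Peg3, was at 1.31, 0.826 and 0.811 in WT and at 1.56, 1.75 and 2.22 in the knockout (log2 fold change 0.98, limma adjusted p 0.00181, SE 0.196).

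The Snrpn domain on chromosome 7, which corresponds to the human Prader-Willi and Angelman region, moved by gene rather than as a whole. Of its 7 genes 2 were higher, 2 lower and 3 were not called, beside 33.6% of all tested genes higher and 28.9% lower. Ndn, the growth suppressor necdin, was at 4.65, 4.91 and 4.32 in WT and at 8.41, 7.56 and 7.78 in the knockout (log2 fold change 0.82, limma adjusted p 1.79e-06, SE 0.059). Its neighbour Magel2, of the same MAGE family, rose by 1.30 from 0.487 ± 0.0411 to 1.16 ± 0.0775 (SD, n = 3). Mkrn3 and Peg12, the next genes along the chromosome, did not rise: Mkrn3 was not called (4.43 ± 0.161 and 4.06 ± 0.284, SD, n = 3) and Peg12 fell by 0.25. Mkrn3 was called lower with equal totals (-0.23) and with level centring (-0.28). Snrpn, a core component of small nuclear ribonucleoproteins, fell by 0.19, from 188, 194 and 197 to 157, 167 and 163, and by 0.35 with equal totals and 0.40 with level centring. Snurf, encoded by the same primary transcript, was at 233 ± 7.22 and 210 ± 10.9 (SD, n = 3) with a log2 fold change of -0.02 on scaled reads, not called, while its groups did not overlap on the TPM scale. It was called lower with equal totals (-0.17), with the TPM column (-0.15) and with level centring (-0.22). A further gene model at the same place, Gm38393, fell from 44.0 to 26.2, and how reads were divided among the 3 models is uncertain. Ube3a, the ubiquitin ligase imprinted in neurons, was at 31.9 ± 0.616 and 31.9 ± 1.39 (SD, n = 3) and was not called, but was called lower with level centring (-0.13).

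**Figure D2:**
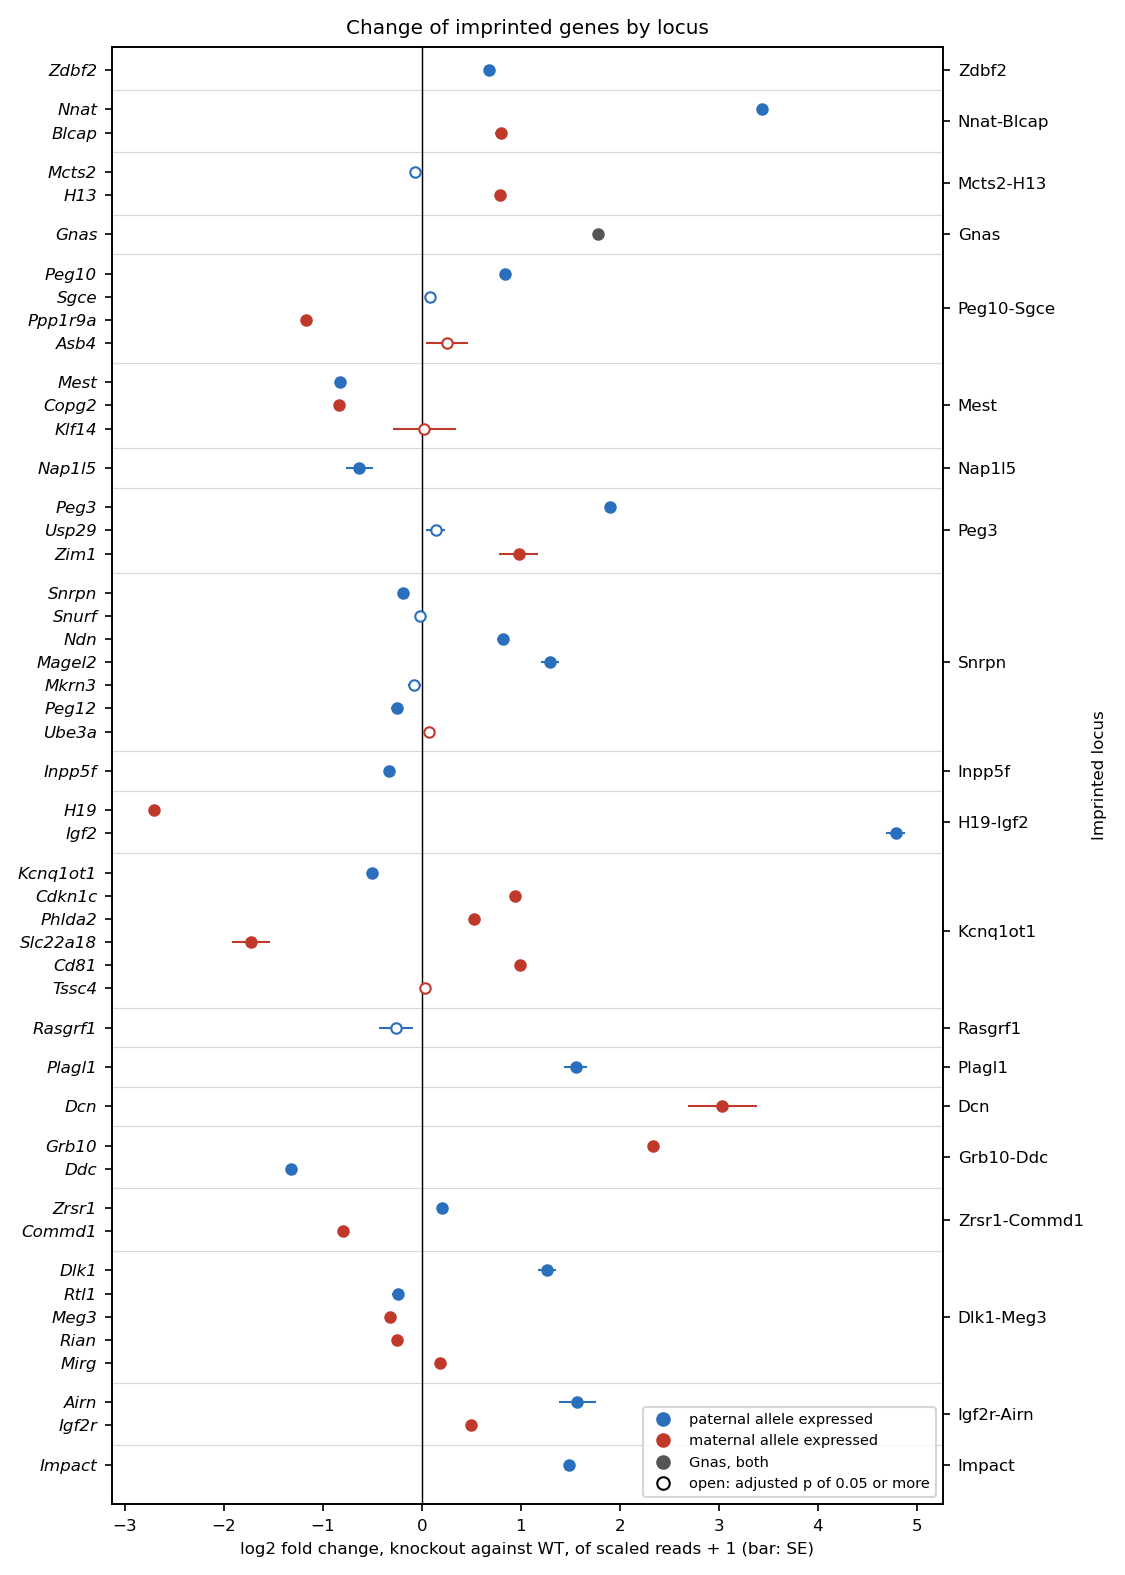
log2 fold change of each imprinted gene, knockout against WT, with its SE, grouped by locus. Colour gives the allele known from other work to be expressed, which was not measured here, and open points have an adjusted p of 0.05 or more. Points of both colours lie on both sides of 0.

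Among loci with 1 member here, Plagl1, Impact and Zdbf2 rose. Plagl1, a zinc finger factor that regulates other imprinted genes, was at 2.59, 2.56 and 2.46 in WT and at 6.89, 6.92 and 7.39 in the knockout (log2 fold change 1.55, limma adjusted p 2.43e-06, SE 0.117). Impact, an inhibitor of the kinase GCN2, was at 95.1, 93.1 and 95.1 in WT and at 257, 249 and 244 in the knockout (log2 fold change 1.48, limma adjusted p 4.5e-10, SE 0.0295). No library of either gene overlapped the other genotype. With level centring Impact was at 0.87, while the median log2 fold change of chromosome 18 was 0.21. Zdbf2, on chromosome 1, rose by 0.68 (0.38 with level centring) from 12.8 ± 0.223 to 19.8 ± 0.261, and Inpp5f, a phosphoinositide phosphatase gene, fell by 0.33 from 14.8 ± 0.312 to 11.3 ± 0.0782 (SD, n = 3). Rasgrf1, an exchange factor of neurons, was at most 0.204 on the TPM scale in every library and was not called. Dcn, the matrix proteoglycan decorin, rose by 3.04 on the log2 scale (limma adjusted p 4.46e-05, SE 0.347) but low levels, 0.0416, 0.0741 and 0.131 in WT and 0.682, 0.747 and 0.583 in the knockout. Dcn is abundant in fibroblasts. Lum, 47.0 kb away and itself among the fibroblast markers above, was also higher (2.88), at low mean levels of 0.0145 in WT and 0.114 in the knockout. Of the 16 fibroblast markers 13 were higher. The 3 lower ones, Thy1 (13.1 to 5.91 on the TPM scale), Mfap5 (8.43 to 3.26) and Pdgfra (1.56 to 0.733), were the most abundant of them in WT. A part of fibroblasts in the rise of Dcn was not tested.

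Commd1, a regulator of copper and NF-kappaB, and Zrsr1, a splicing factor retrogene within its intron, diverged on chromosome 11. Commd1 was at 305, 293 and 299 in WT and at 168, 161 and 161 in the knockout (log2 fold change -0.79, limma adjusted p 1.69e-08, SE 0.0283). Deviation centring brought it to -0.40, still called. Zrsr1, at 16.6, 14.9 and 16.5 in WT and 17.2, 19.1 and 17.3 in the knockout, was called higher (0.21, limma adjusted p 0.00705, SE 0.0528), was at 0.051 and not called with equal totals, and was at 0.60 with deviation centring. All 6 called genes of the 7 flanking this locus were lower, beside 57.5% of the tested genes of chromosome 11. Among the 6 is Gm28048, a gene model that overlaps Commd1 on the same strand.

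Of the 12 loci with at least 2 members, 7 had members called in both directions and 2, Nnat-Blcap and Igf2r-Airn, had every member called in 1 direction. With equal totals the number called in both directions was also 7, without Zrsr1-Commd1 and with Mcts2-H13. These counts stand beside 33.6% of all genes higher and 28.9% lower, and whether loci are mixed more often than other neighbouring genes was not tested. The ratio of Grb10 to Ddc was 0.446 to 0.517 in WT and 5.92 to 6.36 in the knockout. Cdkn1c to Kcnq1ot1 went from between 23.2 and 25.7 to between 58.8 and 69.3, and Dlk1 to Meg3 from between 0.0074 and 0.0092 to between 0.0248 and 0.0270. Rian to Meg3 moved little, from between 1.23 and 1.26 to between 1.30 and 1.33.

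**Figure D3:**
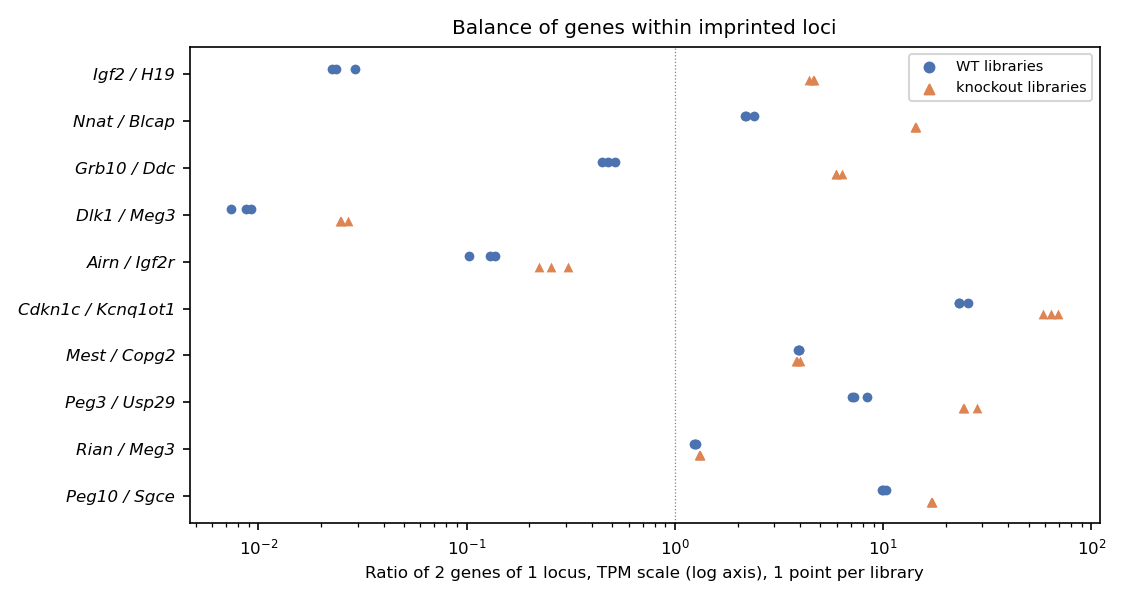
Ratio of the levels of 2 genes of the same locus on the TPM scale, with a log axis and 1 point per library. Igf2 to H19 crosses 1 between genotypes, from 0.0226 to 0.0291 in WT to 4.39 to 4.67 in the knockout, while Mest to Copg2 lies between 3.83 and 4.01 in all 6.

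Genes known to be expressed from either parental allele were called in both directions. Of 26 paternally expressed genes 12 were higher and 8 lower (median log2 fold change 0.11), and of 21 maternally expressed genes 10 were higher and 7 lower (median 0.18). Upward calls made up 46.2% of the paternal and 47.6% of the maternal genes, beside 33.6% of all tested genes. Downward calls made up 30.8% and 33.3%, beside 28.9%, so they were about as frequent as in the whole table. Gnas was left out because both alleles give products. The summed level of paternally expressed genes was 971 to 988 on the TPM scale in WT and 1427 to 1456 in the knockout. That of maternally expressed genes was 1409 to 1445 in WT and 1248 to 1261 in the knockout. Single abundant genes weigh heavily in these sums: Nnat went from 30.2 to 310 and Commd1, on chromosome 11, from 299 to 164. The alleles are those known from other work and were not measured here, so the sums are not the output of an allele. The most abundant paternally expressed genes were Snurf, Snrpn and Mest in WT and Nnat, Impact and Snurf in the knockout. On the maternal side they were Rian, Meg3 and Commd1 in both genotypes.

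Position on the chromosome was compared through 159 protein-coding genes within 500 kb that are not on either list of imprinted genes. They include gene models that overlap members and so may share reads with them: Gm20721 at Gnas (2.03), Gm38393 at Snrpn (-0.68) and Gm28048 at Commd1 (-0.33). Of these 64 were higher and 44 lower (either direction 67.9%, against 62.6% of all tested genes), with a median of 0.09, and 49 higher and 59 lower with equal totals. The 12 members on chromosomes 6 and 11 had 3 higher and 6 lower. Among all tested genes, 19.3% rose and 46.4% fell on chromosome 6, and 14.4% and 57.5% on chromosome 11. The other 36 members had 20 higher and 9 lower (55.6% and 25.0%), and the pooled share of all genes off chromosomes 6 and 11 was not counted. Chromosome 8, which holds no member, had 15.4% higher and 53.6% lower. The remaining autosomes and X ran from 32.4% (chromosome 13) to 47.4% (chromosome 18) higher. Their lower shares ran from 16.9% (chromosome 18) to 28.0% (chromosome 13), a range that holds the 25.0% of these members. The median of the 48 members was 0.34 with deviation centring, 0.30 with level centring and 0.0032 with equal totals. The median of all tested genes was -0.020, -0.10 and -0.15 in the same order. The plot of neighbours shows Nnat, Igf2, Gnas, Peg3, Grb10 and Impact above the median of their chromosomes, and H19 and Slc22a18 below it. Flanking genes spread widely as well, from -2.46 beside Mcts2-H13 to 5.54 beside Inpp5f.

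**Figure D4:**
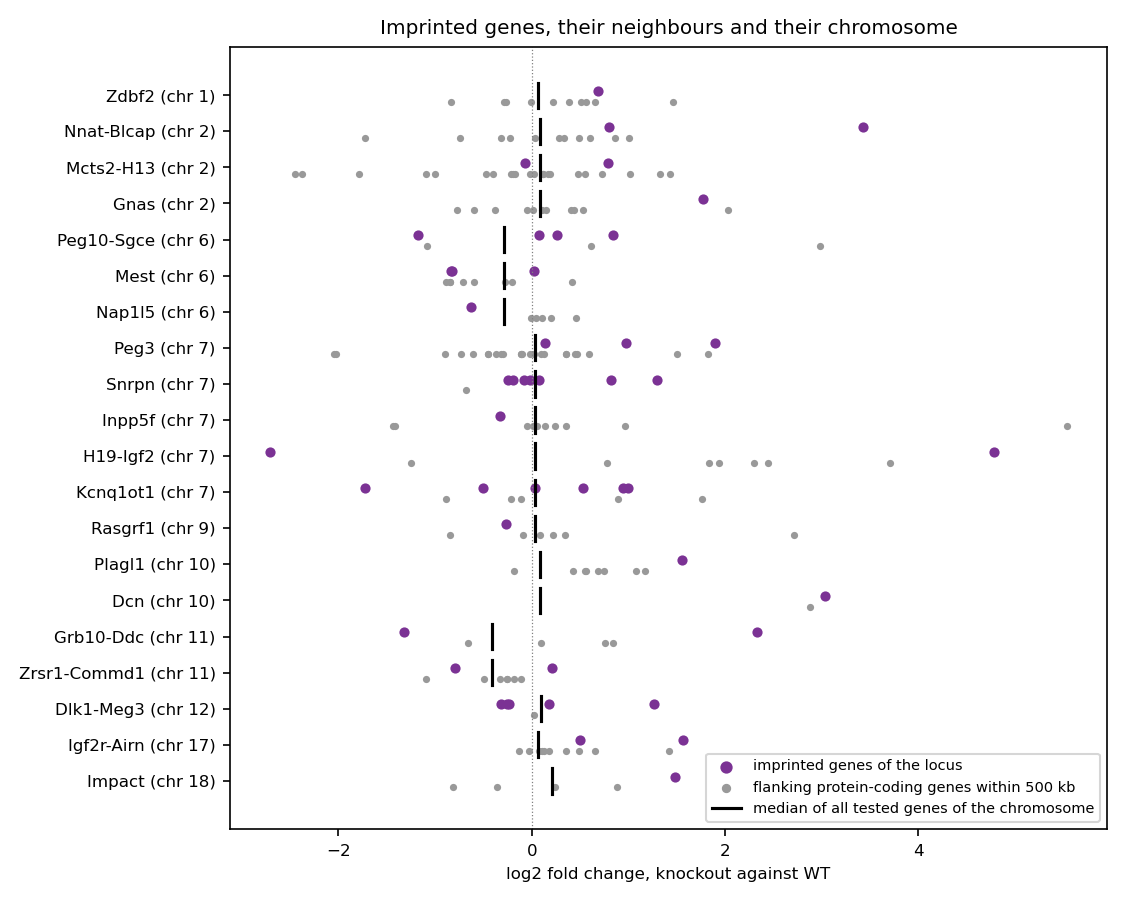
log2 fold change, knockout against WT, of imprinted genes (purple), of flanking protein-coding genes within 500 kb (grey) and the median of all tested genes of the chromosome (black bar), by locus. The black bar is at -0.29 on chromosome 6 and -0.41 on chromosome 11.

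Factors that write, keep or erase imprints changed in both directions. Of 25 listed, 9 were higher and 13 lower (88.0% called, against 62.6% of all genes), with a median of -0.09. The split was 3 higher and 15 lower with equal totals. With deviation centring 6 were higher and 10 lower, 64.0% called against 60.7% of all genes, and with level centring 5 and 11, 64.0% against 60.6%, so the excess over all genes was small under either centring. Dppa3, which protects the maternal genome from demethylation, had the largest change of the list (-2.27, limma adjusted p 3.55e-10, SE 0.0431), from 90.2 ± 3.22 to 17.8 ± 0.66 on the TPM scale (SD, n = 3). Dnmt3l, the cofactor of new methylation in germ cells, fell by 0.94 from 303 ± 13.2 to 152 ± 5.57, and the methylcytosine dioxygenase genes Tet1 and Tet2 fell by 0.84 and 0.94 (SD, n = 3). Zfp57 and the maintenance methyltransferase gene Dnmt1 were named after their values were seen. Zfp57 fell by 0.54 from 204 ± 1.77 to 134 ± 1.53, and Dnmt1 was at 55.3 ± 1.39 and 53.3 ± 2.89 and was not called (SD, n = 3). Of 40 further imprinted genes that are no members, 36 had a row, and 16 were higher and 12 lower (77.8% called, median 0.12). Zfp264, in the Peg3 domain, fell by 3.12 from 3.46 ± 0.240 to 0.376 ± 0.0256 (SD, n = 3), opposite to Peg3, and Ampd3 fell by 2.11. Pde10a and Osbpl5, the latter in the Kcnq1ot1 domain, rose by 2.95 and 2.24.

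As a check of the labels, Mettl5 had TPM-scale levels of 48.6 to 50.3 in WT and of 3.32 to 3.65 in the knockout. Of 12 markers of embryonic stem cells, all found in every library, 2 were higher and 7 lower (median -0.27), with a summed level of 5578 to 5976 in WT and 5110 to 5549 in the knockout. Neuronal markers, relevant to genes imprinted in brain, had 4 of 10 higher and 4 lower, with a summed level of 250 to 256 in WT and 298 to 301 in the knockout. The counts of both lists stand beside 33.6% of all tested genes higher and 28.9% lower. Within a genotype, the coefficient of variation of the imprinted genes had a median of 3.67% in WT and 3.33% in the knockout and was highest for Dcn (54.9%, WT) and Klf14 (27.6%, knockout). Scaled reads summed to 46076612 to 46541352 per WT and 51499598 to 51829716 per knockout library. The number of sequenced reads was not recovered from the values.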

How the data were processed

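PolyA RNA libraries of 3 WT and 3 Mettl5 knockout samples were compared, with groups and replicate numbers from the sample titles. The submitters' processing notes name kallisto, sleuth and mm10, with versions, annotation and strand setting not given in the sources used here. Per gene and library the table holds, per the file headers, columns of scaled reads and TPM. Both are signals deposited by the authors after rescaling: scaled reads are not whole numbers and summed to 46076612 to 51829716 per library, and the TPM column to 969838 to 1022470, so it is called the TPM scale. The share of low values within 0.02 of a whole multiple of the best step was 29.7% to 32.8%, too few to recover reads.

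Scaled reads plus 1 were log2 transformed where their mean reached 1, which kept 24183 genes. All 48 members passed. They were tested with limma 3.58.1 (R 4.3.3, intensity trend, two-sided), with p-values adjusted over all tested genes at a threshold of 0.05. Fold changes understate those of low genes, and can differ from printed levels because the columns are scaled differently. Alternatives were equal totals, trimmed-mean (TMM) scaling factors computed on scaled reads, the TPM column with a pseudocount of 0.1, pseudocounts of 0.1 and 5, no filter or one at 20, a replicate block, level centring per chromosome, and leaving out each library. Deviation centring was added after seeing the data. It shifts a chromosome by a value close to, but not the same as, its median fold change. The fit was tested on simulated data. Tables were made with pandas 2.3.3 in Python 3.11.15.

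The members and gene lists were chosen with earlier results of these data known. Every member is named. Of the regulators and of the further imprinted genes, the rule names the 4 largest called changes with at least 1 on the TPM scale. Flanking genes are named from the 2 nearest on each side of a locus. Gm38393, which overlaps Snrpn, is among them, as are Gm28048, which overlaps Commd1, and Gm20721, which overlaps Gnas. GENCODE M21 (GRCm38, mm10) matched 23846 of 24191 identifiers. Of the 48 members, 28 overlap another gene of the table. Lists of markers were described by counts and sums, and Thy1, Mfap5 and Pdgfra were named after their values were seen. Same-numbered libraries did not deviate together (r from -0.00943 to 0.0443), so the numbers were not taken as pairs.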

Additional observations from a re-analysis of the deposited data

How the results depend on the processing

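Under all 16 alternatives 36 of the 48 members kept their direction and their side of the threshold, and all 38 called members kept call and direction when any 1 library was left out (23 to 24 higher, 15 lower). The replicate block also gave 23 higher and 15 lower, and changed no member's call. Counts of called regulators, further imprinted genes and flanking genes ran from 18 to 21, 27 to 29 and 101 to 108 without 1 library. Directions turned only in genes with small log2 changes. With equal totals these were Sgce (-0.077), Klf14 (-0.12), Usp29 (-0.018), Ube3a (-0.085) and Tssc4 (-0.13). With the TPM column they were Klf14 (-0.011), Ube3a (-0.00075) and Tssc4 (-0.033). With level centring per chromosome they were Usp29 (-0.068), Ube3a (-0.13), Tssc4 (-0.18) and Mirg (-0.014), and with deviation centring Tssc4 (-0.019). Of these genes only Mirg was called in the reported fit. With level centring Ube3a and Tssc4 were called lower (limma adjusted p 0.0434 and 0.0123), and Asb4 was called higher (0.53, limma adjusted p 0.0404). Without 1 library Klf14 ran from -0.19 to 0.20, Snurf from -0.069 to 0.026 and Tssc4 from -0.015 to 0.067. The stricter filter removed Klf14. The cause of these shifts beyond the rescaling itself was not tested. Of the 38 called members, values moved by over 1.5 times in the same direction for 6 with equal totals, 13 with level centring, 6 with deviation centring, 1 with the TPM column and 0 with TMM factors. Level centring lowered Igf2r to 0.31 and Phlda2 to 0.32 and took Meg3 to -0.52. The median log2 fold changes of their chromosomes were 0.061, 0.034 and 0.098. Klf14, at 12.5 and 12.7 mean scaled reads, and Dcn, at 7.57 in WT, rest on few reads.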
